A study of Rattus norvegicus with 8 samples.

Results

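The genes described here code for the protein parts of the rat cell's 2 kinds of ribosome, the cytosolic and the mitochondrial. Members were taken by symbol: Rpl or Rps followed by a digit or the letter a for the cytosolic ribosome, and Mrpl or Mrps for the mitochondrial one, with Rps6k kinases, pseudogenes and LOC names left out. The arrays carried 144 such genes, 78 cytosolic and 66 mitochondrial, among 27530 genes or unnamed probes. Each gene was represented by its brightest probe in the liver channel. Signal well above background was found for 134 of the 144, namely 43 of the large and 30 of the small cytosolic subunit, and 39 of the large and 22 of the small mitochondrial subunit.

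Liver RNA came from 21-day-old male Sprague-Dawley pups that stayed with their own dams. Control dams received corn oil alone. The 0.5MAhR dams received, in corn oil, a mixture dosed at 0.5 mg/kg/day of organochlorine pesticides, PCBs and methyl mercury, to which AhR agonists (dioxins, furans and non-ortho PCBs) were added for a total of 6.3 ng/kg/day of TCDD equivalents, from the start of gestation until the day before sampling. The AhR, or aryl hydrocarbon receptor, is a transcription factor that dioxin-like compounds activate. The 4 control arrays (replicates 5 to 8) and the 4 mixture arrays (replicates 1 to 4) each held a pool of 2 pups, and no source used here ties the pools to litters. P-values therefore measure only the spread between pools. Pups were exposed only through the dam, and the label 0.5MAhR names 1 dose of a many-component mixture, so no single compound can be singled out.

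Liver RNA was read in Cy5 and, on the same spots, a shared reference made from 14 rat cell lines was read in Cy3. All values below are log2 ratios of liver over reference, unless another scale is named. The 8 arrays lay on 1 slide in 2 columns, with 2 control and 2 mixture arrays in each column. Profiles correlated at 0.980 to 0.991 between arrays of a column and at 0.936 to 0.961 between columns. Slide column was therefore a term in every comparison of groups, unless stated otherwise. The share of spots with Cy5 signal well above background was 42.9% to 49.2%, lowest in mixture replicate 1. The hepatocyte markers (10 of 10 tested, among them albumin at 8.92) had a median ratio of 7.16 in controls, and 10 of 10 were above the reference.

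Cytosolic ribosomes translate nearly all cellular messenger RNA. They are built in the nucleolus from ribosomal RNA and from proteins that are themselves made in the cytoplasm. Their protein genes are known for messages that begin with a C followed by a run of pyrimidines, the 5′ terminal oligopyrimidine (TOP) element, through which mTOR signalling sets their translation. Mitochondrial ribosomes translate the few proteins encoded by mitochondrial DNA, all parts of the respiratory chain and ATP synthase, and their own protein subunits are nuclear gene products imported from the cytosol. Hepatocytes are rich in both, since the liver secretes most plasma proteins and has a high oxidative demand.

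The sequences around the transcript starts of 11 members are printed below because a feature of them, which the choice of members did not use, was found at different shares in the 2 classes. Promoter windows from RefSeq (assembly GRCr8; the coordinates belong to that build, and the array data have none) were held for 109 of the 134 tested members. Each line gives 25 bases before the start and 25 bases from the start on, read along the gene's strand, so that the start is base 26. Capitals mark the longest run of a C followed by at least 5 further C or T that lies within 20 bases either side of the start.
Rpl11 (chr5:153560778-153560827, minus strand): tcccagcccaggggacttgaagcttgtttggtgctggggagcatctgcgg
Rpl12 (chr3:36661915-36661964, plus strand): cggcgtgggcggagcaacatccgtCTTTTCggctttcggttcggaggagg
Rps6 (chr5:106420516-106420565, minus strand): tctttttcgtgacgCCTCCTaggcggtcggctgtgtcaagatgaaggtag
Rpl5 (chr14:1995201-1995250, minus strand): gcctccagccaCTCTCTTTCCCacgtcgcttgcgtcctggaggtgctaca
Rpl22 (chr5:168117936-168117985, plus strand): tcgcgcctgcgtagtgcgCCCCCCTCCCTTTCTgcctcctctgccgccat
Rpl27a (chr1:172974548-172974597, plus strand): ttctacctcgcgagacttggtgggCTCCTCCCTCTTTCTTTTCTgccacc
Rpl38 (chr10:100200410-100200459, plus strand): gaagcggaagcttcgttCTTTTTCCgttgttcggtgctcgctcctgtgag
Rpl22l1 (chr2:113683171-113683220, plus strand): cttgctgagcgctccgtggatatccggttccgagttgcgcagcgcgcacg
Mrpl12 (chr10:106256721-106256770, plus strand): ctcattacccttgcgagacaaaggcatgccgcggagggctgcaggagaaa
Mrps16 (chr15:3967784-3967833, plus strand): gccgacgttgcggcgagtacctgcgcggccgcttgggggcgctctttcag
Mrpl32 (chr17:55260626-55260675, plus strand): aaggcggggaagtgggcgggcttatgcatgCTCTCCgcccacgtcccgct

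A run of this kind lay near the start of 50 of 59 cytosolic members (84.7%) and 18 of 50 mitochondrial members (36.0%), against 27.9% of the 12398 genes on the array that had a promoter entry. The run spans 20 bases in Rpl27a and 15 in Rpl22, and it is 6 bases long in Rpl12 and Rps6. Rpl22l1, a paralogue of Rpl22, held none within 20 bases of the start, nor did Rpl11, Mrpl12 or Mrps16. The Mrps16 line ends in a similar run that reaches past that limit and was not counted. The Rps6 line opens with a run longer than the marked one, which begins outside that limit and was not counted either. A stricter rule asked for a C exactly at the annotated start followed by at least 4 C or T. It was met by 35.6% of cytosolic members, 4.0% of mitochondrial members and 2.48% of all genes with a promoter entry.

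Other motifs were searched on both strands of the 300-base windows from 250 bases before to 50 after the start. Shares are of genes with a promoter entry, and a gene was counted if any of its entries held the match. The ETS family core CCGGAAG was found in 28.8% of cytosolic and 36.0% of mitochondrial members, against 13.2% of all genes. GCGCATGCG is bound by NRF1, a regulator of nuclear genes for mitochondrial proteins. It was found in 1 of 59 cytosolic and 5 of 50 mitochondrial members and in 2.36% of all genes. AAGATGG, a YY1 motif, was found in 13.6%, 26.0% and 7.53%. The core of the AhR response element, TNGCGTG, was found in 11.9%, 8.0% and 6.65%, and TATAAA in 10.2%, 12.0% and 12.3%. A match is a string of letters and not a shown binding site.

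In control liver the cytosolic members lay below the reference RNA and the mitochondrial members above it. The median cytosolic ratio was -0.71, and 69 of 73 members were below the reference, where 45.9% of all 10566 tested genes were. The median mitochondrial ratio was 0.53, and 55 of 61 members were above it, where 54.1% of all tested genes were. The quartiles were -0.99 and -0.52 for the cytosolic class and 0.23 and 0.86 for the mitochondrial class. These ratios are relative to cultured cell lines with the dye fixed, so they give neither the amount of a message nor a dye-free fold.

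The distance between the classes was present on every array. The cytosolic median lay below the mitochondrial median by -1.21, -1.26, -1.43 and -1.22 in control replicates 5 to 8, and by -1.52, -1.33, -1.30 and -1.39 in mixture replicates 1 to 4. The means were -1.28 ± 0.10 in control and -1.38 ± 0.10 in mixture arrays (SD, n = 4 each), and the 2 groups overlapped. Centring each array on its median in place of loess moved the median of all tested genes from 0.10 to -0.82, and with it the mitochondrial median to -0.44 and the cytosolic to -1.98. The sign of the mitochondrial ratio thus depended on the scaling. Relative to the median of all genes the mitochondrial class stayed above and the cytosolic class below under loess, under median centring and in the deposited values (-0.70 and 0.37, against -0.02 for all genes). With the scanner's processed signals the cytosolic median was -0.12, with 45 of 73 members below the reference, and the mitochondrial median was 0.49.

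**Figure D1:**
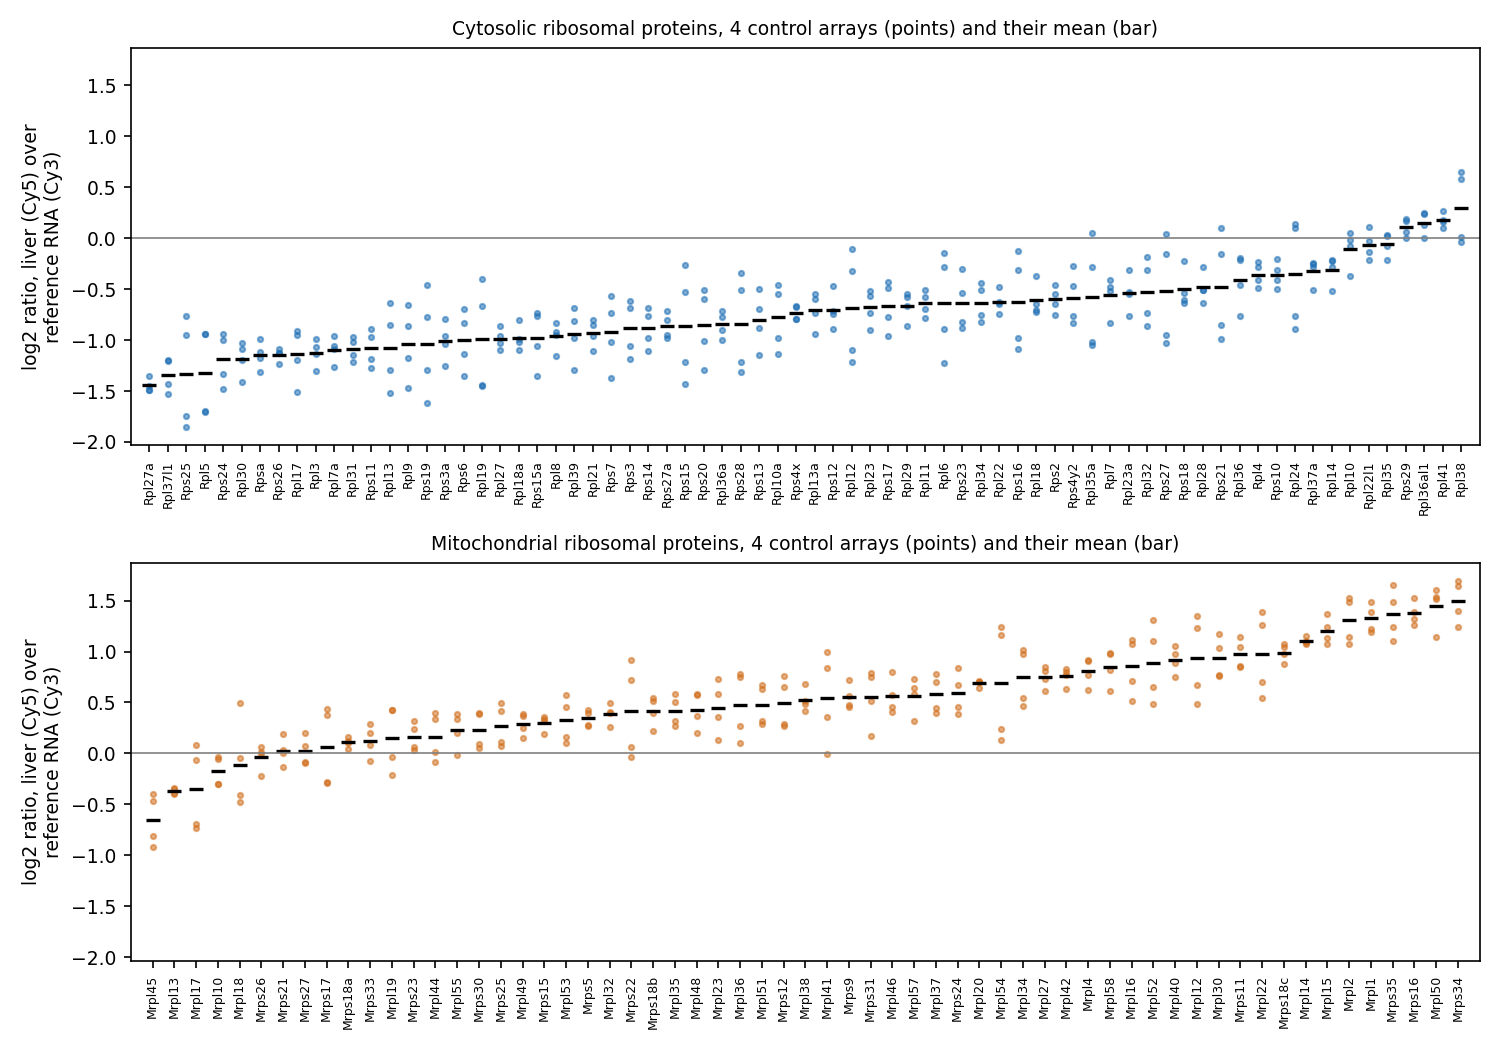
Log2 ratio of liver (Cy5) over reference RNA (Cy3) on the vertical axis for tested members on the horizontal axis, 72 of the 73 cytosolic (upper) and 61 mitochondrial genes (lower), ordered by control mean; points are the 4 control arrays and bars their mean. Most cytosolic members lie below 0 and most mitochondrial members above it, and many genes show their 4 points in 2 pairs.

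Among the cytosolic members, ratios ran from -1.44 for Rpl27a to 0.30 for Rpl38. Rpl27a, a large subunit protein, read -1.35, -1.49, -1.49 and -1.45 in control replicates 5, 6, 7 and 8, or 0.367 times the reference. These 4 values lay close together in both slide columns. Rps25, a small subunit protein used in internal initiation of translation, averaged -1.33 ± 0.55 (SD, n = 4), but read -0.76 and -0.95 in column 1 and -1.86 and -1.75 in column 2. Its place in the order therefore rested on column 2. Rpl37l1 averaged -1.34 ± 0.17, and its values did not differ beyond their spread from those of Rpl27a or Rps25.

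At the upper end, Rpl38, a large subunit protein known for its part in translating a set of Hox messages, read -0.04 and 0.01 in the column 1 controls and 0.58 and 0.65 in the column 2 controls. Rpl41, a peptide of the large subunit, averaged 0.18 ± 0.07, and Rpl36al1 averaged 0.15 ± 0.11. Rpl22l1 averaged -0.07 ± 0.14 while its paralogue Rpl22 averaged -0.62 ± 0.11, and the 4 control values of the pair did not overlap. Rps4x and Rps4y2, 2 forms of a small subunit protein, averaged -0.73 ± 0.07 and -0.58 ± 0.26, within their spread.

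Proteins with roles outside or at the edge of the ribosome fell across this range. Rps6, the small subunit protein phosphorylated by S6 kinase downstream of mTOR, averaged -1.0 ± 0.30. Rpl5 and Rpl11, which with 5S RNA bind Mdm2 when ribosome assembly fails, averaged -1.32 ± 0.44 and -0.64 ± 0.12. Rpsa, also a laminin-binding protein, averaged -1.15 ± 0.14, and Rps27a, made as a fusion with ubiquitin, -0.86 ± 0.12. Rps19 and Rps14, whose human counterparts are affected in Diamond-Blackfan anaemia and in the 5q- syndrome, averaged -1.04 ± 0.52 and -0.88 ± 0.20. The SD over 4 arrays includes the column difference, so members with a large column difference have a wide SD.

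Among the mitochondrial members, ratios ran from -0.65 for Mrpl45 to 1.5 for Mrps34. Mrps34, a small subunit protein, read 1.65, 1.24, 1.69 and 1.40 in control replicates 5 to 8, or 2.82 times the reference. Mrpl50 averaged 1.45 ± 0.21 and Mrps16, a small subunit protein, 1.38 ± 0.11. These 3 genes did not differ beyond their spread. At the lower end stood Mrpl45, which ties the mitoribosome to the inner membrane, at -0.65 ± 0.25, Mrpl13 at -0.37 ± 0.03 and Mrpl17 at -0.35 ± 0.42.

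Mitoribosomal proteins with further known roles lay mostly between these ends. Mrpl12, which also binds the mitochondrial RNA polymerase, averaged 0.93 ± 0.42, and its partner in the ribosomal stalk, Mrpl10, averaged -0.17 ± 0.15. Mrpl58, a peptidyl-tRNA hydrolase that rescues stalled ribosomes, averaged 0.85 ± 0.18, and Mrps12, part of the decoding centre, 0.49 ± 0.25. The 3 homologues Mrps18a, Mrps18b and Mrps18c averaged 0.11 ± 0.05, 0.42 ± 0.15 and 0.99 ± 0.09, and their control values did not overlap. Mrpl37, Mrpl41, Mrpl44, Mrps22, Mrps30 and Mrps35 averaged between 0.16 and 1.37.

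No ribosomal protein gene differed between the pups of 0.5MAhR and control dams at an adjusted p of 0.05 (limma, with slide column in the fit). The count was 0 of 73 cytosolic and 0 of 61 mitochondrial members, where 5 of 10566 genes passed (0.0473%). Before adjustment 1 member, Rpl11, had a p under 0.05, where 6.34% of all genes passed in either direction and 2.84% as lower. The 4 control and 4 mixture values were apart without overlap in 0 members, where this held for 1.32% of all genes. The smallest adjusted p was 0.781 among cytosolic and 0.868 among mitochondrial members.

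The direction of the small differences was less even. Of the cytosolic members 71 of 73 had a lower mixture than control mean (median difference -0.09), where 53.2% of all tested genes were lower and their median was -0.01. The count was 47 of 73 without mixture replicate 1 and 37 of 73 when arrays were centred on their medians in place of loess. Of the mitochondrial members 43 of 61 were lower, with a median of -0.03, against 27 of 61 with median centring. Members of a class share arrays and are correlated, so these counts are no sum of independent genes. The 2 subunits of the cytosolic ribosome were alike, with medians of -0.10 for 43 large and -0.08 for 30 small subunit genes, and so were those of the mitochondrial ribosome, at -0.03 for 39 large and -0.02 for 22 small subunit genes.

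The confidence intervals bound what could have been missed. The median half-width of the 95% interval of a member's difference was 0.20 for cytosolic and 0.165 for mitochondrial genes, and intervals of single members reached from -0.56 to 0.59. In 72 of 73 cytosolic and 61 of 61 mitochondrial members the interval held 0. By the brightest probe, a difference beyond 0.2 in either direction was estimated for 1 cytosolic member, Rpl22l1, and 0 mitochondrial members. A second, dimmer Rpl22l1 probe gave -0.07. Dimmer probes of Rpl12, Rpl19 and Rpl38 also lay beyond 0.2, at -0.36, -0.33 and -0.25.

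**Figure D2:**
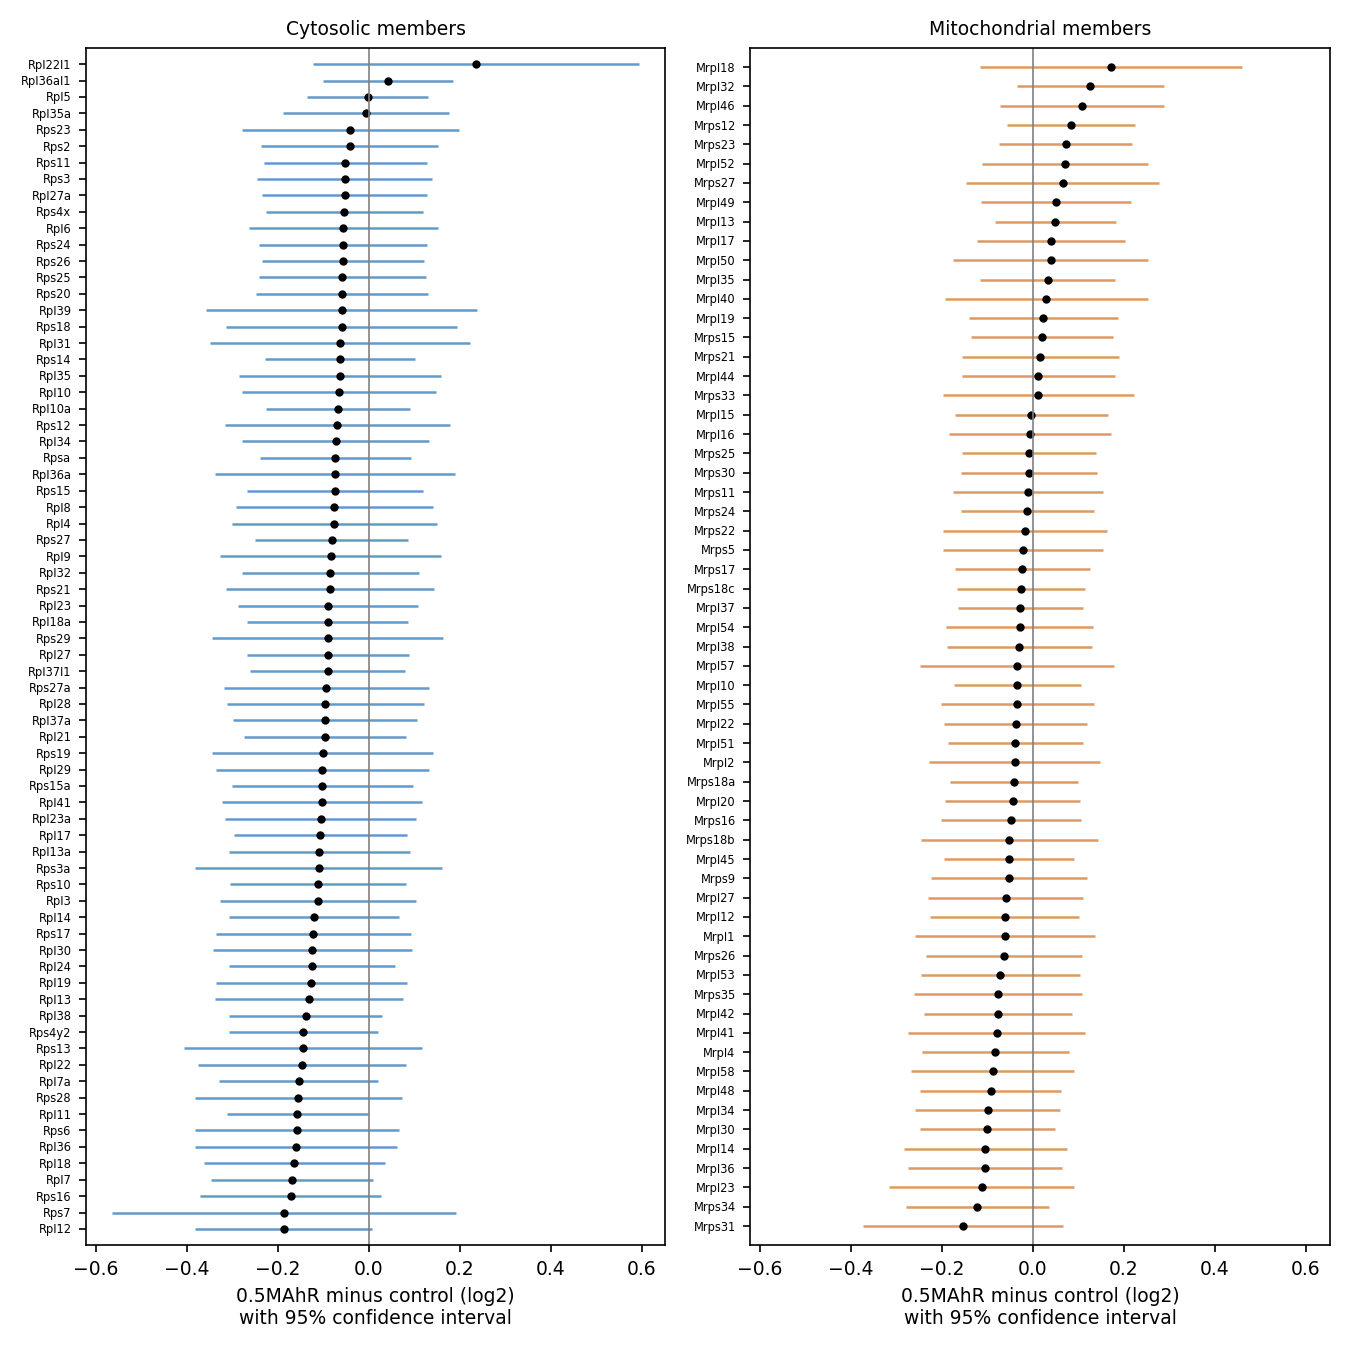
Difference of 0.5MAhR minus control on the horizontal axis (log2, with slide column in the fit; points) with its 95% confidence interval (lines) for 72 of the 73 cytosolic (left) and 61 mitochondrial members (right), ordered by difference. Over all 73 and 61 members, 72 and 61 intervals hold 0, and 71 and 43 differences are below 0 (37 and 27 with median centring).

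Rpl11 read -0.70 and -0.78 in the column 1 controls and -0.87 and -0.86 in the column 1 mixture arrays. In column 2 it read -0.58 and -0.50 in controls and -0.82 and -0.63 in mixture arrays. Within each column both mixture arrays were below both controls, although the groups overlapped over the whole slide. The difference was -0.16 (SE 0.07), or 0.897 times control, with an unadjusted p of 0.048 and an adjusted p of 0.781.

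Rpl12, a protein of the large subunit stalk base, had the largest negative estimate in either class. It read -0.11 and -0.32 in the column 1 controls, -0.31 and -0.26 in the column 1 mixture arrays, -1.21 and -1.10 in the column 2 controls and -1.56 and -1.35 in the column 2 mixture arrays. The columns differed by far more than the groups did. The group difference was -0.19 (SE 0.09, adjusted p 0.812 by limma), made up of -0.07 in column 1 and -0.30 in column 2. A second, dimmer Rpl12 probe gave -0.36 (SE 0.09, limma unadjusted p 0.0033, adjusted p 0.393 over all 11406 passing probes).

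The next lowest unadjusted p-values among lower cytosolic members were those of Rpl7, Rpl7a and Rps4y2. Rpl7 differed by -0.17, Rpl7a by -0.15 and Rps4y2 by -0.14, with limma adjusted p-values of 0.812 to 0.840. Rps6 differed by -0.16 (SE 0.10, adjusted p 0.877), made up of -0.03 in column 1 and -0.29 in column 2. For Rps6 the lowest of all 8 values, -1.69, was that of mixture replicate 1.

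Among cytosolic members, Rpl22l1 and Rpl36al1 had higher means in the mixture group, under loess the only 2 that did; with processed signals Rpl36al1 was at -0.00. Rpl22l1 read -0.03, -0.22, -0.14 and 0.12 in control replicates 5 to 8 and 0.27, 0.42, 0.37 and -0.38 in mixture replicates 1 to 4. Of the mixture values 3 were above every control and the fourth was below every control. Its difference was 0.24 (SE 0.16, adjusted p 0.885), or 1.18 times control. A second, dimmer Rpl22l1 probe gave the opposite sign, -0.07 (SE 0.07), and this range of 0.306 between probes was the widest of any member with several probes. Its paralogue Rpl22 read -0.48, -0.75, -0.65 and -0.62 in controls and -1.16, -0.59, -0.83 and -0.51 in mixture arrays, with a difference of -0.15 (SE 0.10, adjusted p 0.886). The groups overlapped for both genes. Rpl36al1 differed by 0.04 (SE 0.06), and Rpl36a, its close relative, by -0.07 (SE 0.12).

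The remaining cytosolic members named above differed little. Rpl5 differed by -0.00 (SE 0.06), with a confidence interval of -0.14 to 0.13. This overlapped the interval of Rpl11, -0.31 to -0.002, and whether the pair differed from each other was not tested. Rpl38 differed by -0.14 (SE 0.08), Rpl3, at the peptidyl transferase centre, by -0.11 (SE 0.10), Rpl13a by -0.11 (SE 0.09) and Rps19 by -0.10 (SE 0.11). Rpsa, Rpl10, Rps14, Rps27, Rps27a, Rps4x, Rps25, Rpl27a, Rpl37l1, Rpl39 and Rpl41 lay between -0.10 and -0.05. Their adjusted p-values from limma were 0.906 or more.

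Among mitochondrial members the smallest unadjusted p-values were those of Mrpl32 and Mrps34. Mrpl32, a large subunit protein whose cleavage by an inner membrane protease precedes ribosome assembly, read 0.26 and 0.49 in the column 1 controls, 0.52 and 0.58 in the column 1 mixture arrays, 0.41 and 0.40 in the column 2 controls and 0.46 and 0.50 in the column 2 mixture arrays. Within each column both mixture arrays were above both controls, and over the slide the lowest mixture value lay below the highest control value. The difference was 0.13 (SE 0.07, unadjusted p 0.113, adjusted p 0.868 by limma).

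Mrps34 read 1.65 and 1.69 in the column 1 controls, 1.62 and 1.64 in the column 1 mixture arrays, 1.24 and 1.40 in the column 2 controls and 1.09 and 1.15 in the column 2 mixture arrays. Its difference was -0.12 (SE 0.07, adjusted p 0.868 by limma), and the groups overlapped. Mrps31 differed by -0.15 (SE 0.10), Mrpl36, Mrpl30 and Mrpl34 by -0.11 to -0.10. On the higher side Mrpl18, which also imports 5S RNA into mitochondria, differed by 0.17 (SE 0.13), Mrpl46 by 0.11 (SE 0.08), Mrps12 by 0.08 (SE 0.06) and Mrps23 by 0.07 (SE 0.07). Mrpl12 differed by -0.06 (SE 0.07) and Mrpl10 by -0.03 (SE 0.06). Mrpl58, Mrpl41, Mrpl37, Mrps16, Mrps18a, Mrps18b, Mrps18c, Mrps22, Mrps30, Mrpl44 and Mrps35 lay between -0.09 and 0.01.

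Much of the lower cytosolic direction rested on 1 array. The cytosolic median was -0.73, -0.76, -0.86 and -0.70 in control replicates 5 to 8 and -1.05, -0.81, -0.80 and -0.83 in mixture replicates 1 to 4. Mixture replicate 1 lay apart below the other 7 arrays, whose values overlapped between groups. The group means were -0.76 ± 0.07 and -0.87 ± 0.12 (SD, n = 4 each). Without mixture replicate 1 the median of the members' differences went from -0.09 to -0.03, and 47 of 73 members were lower in place of 71. The mitochondrial medians were 0.48, 0.50, 0.56 and 0.52 in controls and 0.47, 0.52, 0.50 and 0.56 in mixture arrays, with means of 0.51 ± 0.04 and 0.51 ± 0.04.

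Set against the mean of the 2 controls in its own column, mixture replicate 1 was lower by a median of -0.33 over the cytosolic members, with 70 of 73 below. It was the lowest of the column's 4 arrays in 67 of 73. Control arrays also shifted as a class. In column 1, control replicate 7 was the lowest of 4 in 54 of 73 members and control replicate 5 the highest in 54. In column 2, control replicate 8 was the highest in 49. Over the cytosolic members, the median against the same column's controls was -0.08 in mixture replicate 3, 0.03 in replicate 2 and -0.00 in replicate 4. Over the mitochondrial members it was -0.09, -0.00, -0.05 and -0.00 in mixture replicates 1, 3, 2 and 4. Over all tested genes it was -0.04 in replicate 1. Over the marker lists it was -0.32 for hepatocyte, -0.32 for erythroid, -0.18 for macrophage, -0.15 for stellate and fibroblast and -0.13 for endothelial markers, and 0.03 for cholangiocyte markers, 0.08 for lymphocyte markers and 0.19 for proliferation genes. Replicate 1 also had the lowest median Cy5 signal of the 8 arrays, 81 where the others had 83 to 94, and the part of these values in the result was not tested.

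**Figure D3:**
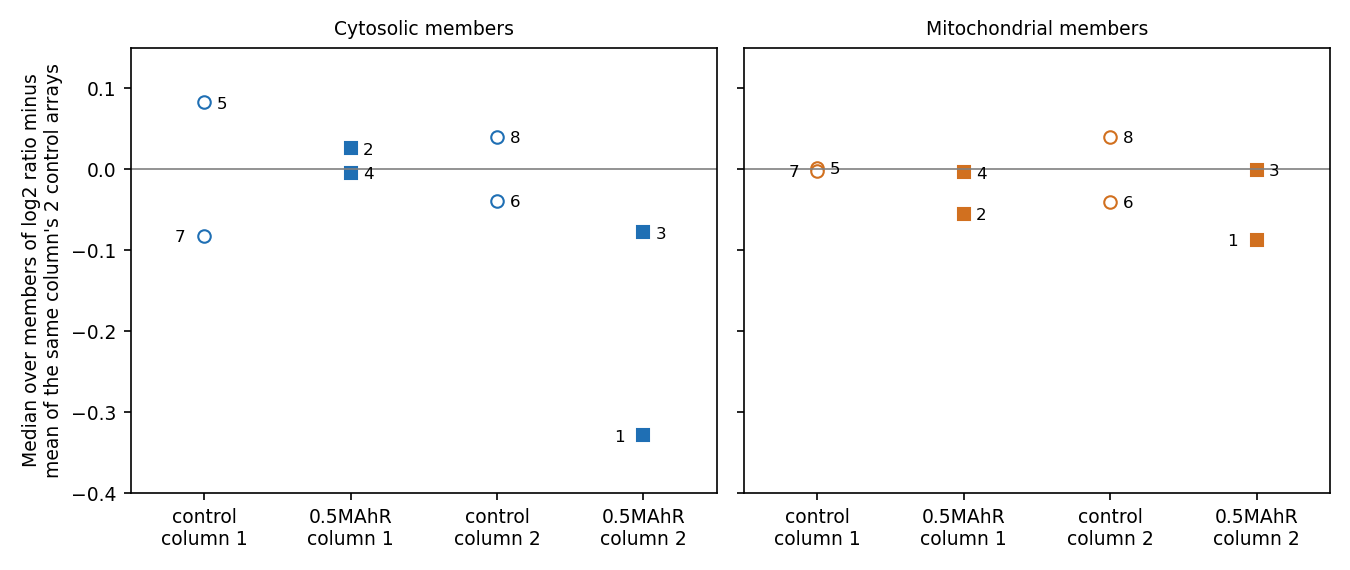
For each array, the median over 73 cytosolic (left) or 61 mitochondrial members (right) of the log2 ratio minus the mean of the same slide column's 2 control arrays, on the vertical axis; open circles are control and filled squares 0.5MAhR arrays, numbered by replicate. Mixture replicate 1 lies at -0.33 in the cytosolic panel and the other 7 arrays between -0.08 and 0.08. Each control is part of the mean it is set against, so the 2 controls of a column mirror each other. This narrows the spread of the control arrays beside that of the mixture arrays.

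Within slide columns, the cytosolic differences lay below the mitochondrial ones in column 2 and not in column 1. In column 1 the median group difference was 0.02 for cytosolic members, with 25 of 73 lower, and -0.03 for mitochondrial members, with 39 of 61 lower, where 46.2% of all genes were lower. In column 2, which holds mixture replicate 1, it was -0.19 for cytosolic members, with 70 of 73 lower, and -0.04 for mitochondrial members, with 41 of 61 lower, where 56.1% of all genes were lower. The cytosolic median minus the mitochondrial median was thus 0.04 in column 1 and -0.16 in column 2. Both columns had a lower mixture mean for 24 of 73 cytosolic and 26 of 61 mitochondrial members, where this held for 27.1% of all genes.

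The group difference was tested for a change between columns with an interaction term in limma. No member passed at an adjusted p of 0.05, nor did any of the 10566 genes (0%). Unadjusted p-values under 0.05 were found for 2 of 73 cytosolic and 0 of 61 mitochondrial members, against 4.99% of all genes. The 2 were Rps29 and Rpl30. Rps29, a small subunit zinc-binding protein, differed by 0.13 in column 1 and -0.31 in column 2 (unadjusted p 0.047, adjusted 0.942). Rpl30 differed by 0.06 and -0.31 (unadjusted p 0.046, adjusted 0.942).

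**Figure D4:**
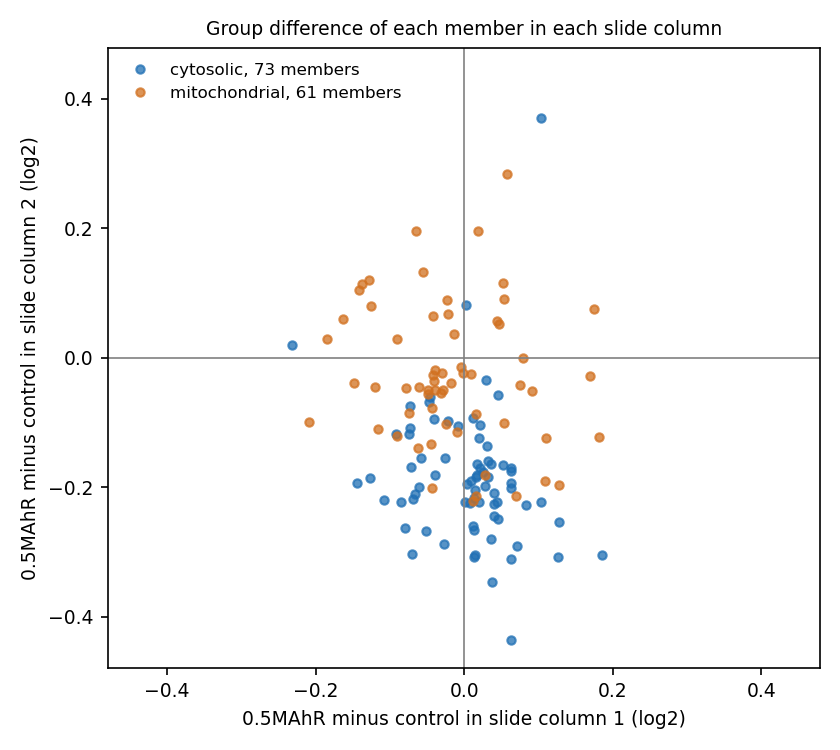
Each member's difference of 0.5MAhR minus control (log2) in slide column 1 on the horizontal axis and in column 2 on the vertical axis; blue points are 73 cytosolic and orange points 61 mitochondrial members. In column 1 the cytosolic members lie on both sides of 0 (25 lower), and in column 2 all but 3 of the 73 lie below it.

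The cytosolic direction also changed with the scaling of the arrays. With median centring in place of loess the cytosolic median difference was -0.00 and 37 of 73 members were lower. In Cy5 alone it was -0.03, in the deposited log2 ratios -0.02 and with processed signals -0.02. In Cy3 alone, where both groups carry the same reference RNA, the cytosolic median was 0.01, and 0 of 134 members passed, where 1 of 10566 genes did (0.00946%).

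Slide columns moved single members far more than the groups did. Between columns 44 of 73 cytosolic (60.3%) and 41 of 61 mitochondrial members (67.2%) passed at an adjusted p of 0.05, near the share of all genes (56.9%). The median size of the difference between columns was 0.28 and 0.31, against 0.09 and 0.05 between groups. Column 2 minus column 1 was as much as -1.06 for Rpl12 and 0.87 for Rpl35a, and -1.01 for Mrpl54 and 0.81 for Mrpl17. Mrpl54 read 1.25 and 1.16 in the column 1 controls and 0.13 and 0.24 in the column 2 controls, while its groups differed by -0.03. Because each column held both groups equally, this difference cancels from the group values.

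Different probes of a gene often gave different column differences. In 53 members more than 1 probe passed, 118 probes in all, and 111 of them read lower in the mixture group. This count is under loess with mixture replicate 1 included, and the share of all passing probes that read lower is not given here. Probes of a gene share its arrays, so they are not independent readings of the direction. Within a gene the column difference ranged over a median of 0.58 between probes. In 28 of 53 members its sign differed between probes, while in 25 it was shared (for Rps15a, 0.34 and 0.35). The share over all genes with several probes is not given here, so these counts cannot be read as particular to ribosomal protein genes. The group difference ranged over a median of 0.04, with a different sign in 7 members. None of the 118 probes passed at an adjusted p of 0.05 (limma, where 0.0789% of all probes did), and 3 had an unadjusted p under 0.05. For Rpl38 the 4 probes gave column differences of -0.97, 0.56, 0.08 and 0.10 and group differences of -0.25, -0.14, -0.16 and -0.14. For Rps15, where the column difference varied most, 2 probes gave 0.83 and -0.83, and group differences of -0.07 and -0.13. Many ribosomal protein genes have processed copies in rodent genomes, and whether a probe also binds those was not tested.

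**Figure D5:**
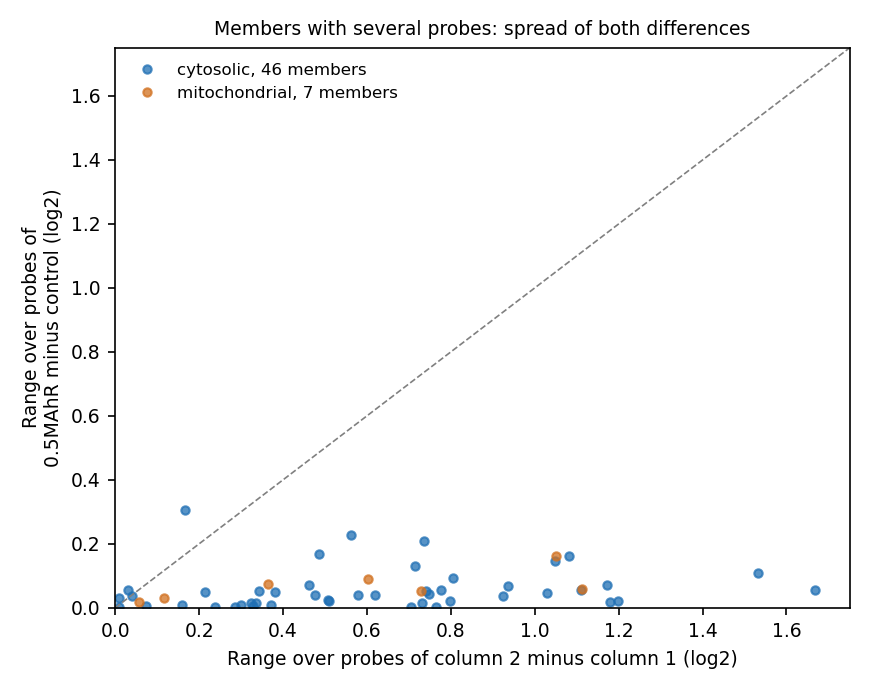
For the 53 members with several passing probes, the range over probes of the slide column difference (horizontal axis, log2) and of the group difference (vertical axis, log2); the dashed line marks equal ranges. In all but 3 of the 46 cytosolic and in all 7 mitochondrial genes the column range is the wider, with a median of 0.58 against 0.04.

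Across arrays the cytosolic members varied together more than the mitochondrial ones. After each column's mean was subtracted from its 4 arrays, the median pairwise correlation over the 8 arrays was 0.78 among cytosolic members, with 92.2% of pairs positive. It was 0.14 among mitochondrial members, 0.22 between the classes and 0.01 among all tested genes. These correlations are descriptions over 8 arrays that share scaling and depth, mixture replicate 1 among them. The classes also differed in brightness. The median net Cy5 signal in control arrays was 15983 for cytosolic members, 776 for mitochondrial members and 188 for all tested genes. The part of brightness or of replicate 1 in the correlations was not tested.

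Members with and without a pyrimidine run near the start had close median group differences. The median was -0.09 for the 50 cytosolic genes with a run and -0.10 for the 9 without, and -0.04 for both the 18 mitochondrial genes with a run and the 32 without. The control ratio to the reference was -0.74 with and -0.64 without a run in the cytosolic class. In the mitochondrial class it was 0.30 with and 0.69 without.

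Ribosomal proteins that the symbol rule leaves out are given for comparison. The cytosolic stalk proteins Rplp0, Rplp1 and Rplp2 differed between mixture and control by -0.10 (SE 0.09), -0.04 (SE 0.11) and 0.03 (SE 0.08). Fau, made as a fusion of a ubiquitin-like protein with a small subunit protein, differed by -0.11 (SE 0.12). The adjusted p-values of these 4 genes were 0.922 or more (limma). Of the mitoribosomal proteins Dap3, Aurkaip1, Ptcd3, Gadd45gip1 and Chchd1, 0 of 5 passed (0 unadjusted) and 4 were lower, with Aurkaip1 at -0.16 and Ptcd3 at -0.06.

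Genes that build or regulate ribosomes likewise passed in no list. Of ribosome biogenesis and RNA polymerase I genes 0 of 34 passed (1 at an unadjusted p under 0.05) and 27 were lower (median -0.04), with Nop2, an rRNA methyltransferase, at -0.18 and Gnl3, nucleostemin, at -0.15. Of translation factors and other genes with TOP messages 0 of 18 passed (0 unadjusted), with 9 higher and 9 lower (median -0.02). Tpt1 was at -0.18 and Eif2s3 at -0.16. Of mTOR, eIF4E and eIF2 control genes 0 of 15 passed (2 unadjusted) and 8 were lower (median -0.02), with Atf4, the transcription factor of the integrated stress response, at -0.26 and Eif2ak1, a kinase of eIF2, at -0.18.

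Of mitochondrial translation and ribosome assembly factors 0 of 30 passed (0 unadjusted), with 15 higher and 15 lower (median -0.01), Sars2, the mitochondrial seryl-tRNA synthetase, at -0.17 and Mrm3, an rRNA methyltransferase, at -0.21. Of mitochondrial transcription and biogenesis genes 0 of 15 passed (3 unadjusted) and 12 were lower (median -0.08), with Polg2, a subunit of the mitochondrial DNA polymerase, at -0.19 and Esrra, a nuclear receptor of oxidative metabolism, at -0.24. Polg2 and Esrra had adjusted p-values of 0.719 and 0.729 (limma).

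Markers of cell types were measured beside these values, since a pool with fewer cells of a type and one with less RNA per cell cannot be told apart. No marker passed in limma; at an unadjusted p under 0.05 there were 3 hepatocyte markers, 1 macrophage marker, 1 stellate marker and 1 proliferation gene. Hepatocyte markers were lower in 9 of 10 (median -0.14), with Ass1 at -0.30 and Fgb at -0.29, and the median level over the list ran from 6.89 to 7.41 in controls and from 6.98 to 7.15 in mixture arrays. Macrophage markers were higher in 8 of 8 (median 0.15), led by Adgre1 at 0.37 and Cd5l at 0.37, with list medians of 1.91 to 2.74 in controls and 2.39 to 3.24 in mixture arrays. Proliferation genes were higher in 4 of 4 (median 0.15), with Cdk1 at 0.25 and Ccnb1 at 0.16, and list medians of -1.88 to -1.46 and -1.67 to -1.40.

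Erythroid markers were higher in 4 of 6 (median 0.12; Ahsp 0.17, Slc4a1 0.23), with list medians of 4.89 to 5.01 in controls and 4.64 to 5.14 in mixture arrays. Stellate and fibroblast markers were higher in 5 of 8 (median 0.09; Des 0.19, Reln -0.21), with list medians of -0.65 to -0.21 and -0.83 to -0.24. Lymphocyte markers were higher in 1 of 3, endothelial in 2 of 4 and cholangiocyte in 2 of 4, with medians of -0.04, -0.01 and 0.02. Their list medians over arrays ran from -1.41 to -1.08, 2.28 to 2.56 and -1.51 to -1.20 in controls, and from -1.65 to -1.10, 2.28 to 2.62 and -1.43 to -1.09 in mixture arrays. Of the 9 lymphocyte markers listed, 7 were on the array and 3 of these could be tested. The part of any of these lists in the ribosomal protein values was not tested.

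The 10 members left out of the tests were not well above background on enough arrays. Rpl3l, the muscle form of Rpl3, Rpl27l2, Rpl39l1, Rps12l4, Mrpl21, Mrpl47 and Mrps14 were not well above background on any of the 8 arrays. Mrpl3 was well above background on 1 control and 1 mixture array, Mrps2 on 0 and 1, and Rpl15 on 1 and 2. Symbols for which no probe was matched, such as Rpl26, Rpl37, Rps9 and Mrps7, were not analysed here.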

How the data were processed

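Per the labels, sample RNA was labelled with Cy5 and reference RNA with Cy3 on all arrays, from 200 ng of total RNA. Per the file headers, Agilent Feature Extraction (version 11.0.1.1) made the deposited spot intensity values and the marks for spots well above background or outlying. How the authors made the deposited log2 ratios of the value table is not stated in what was read here. They correlated at 0.997 to 0.998 with the loess ratios without background correction, so scale and direction were settled, the column medians were -0.0389 to -0.0326, and centring stays unknown.

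In R 4.3.3 with limma 3.58.1, median signals were corrected with normexp (offset 50) and loess. Mean signals were not used here. Outlier spots were dropped, and each probe's spots averaged (30367 probes, 18005 with a symbol from the RefSeq table of GRCr8, names only). A probe was tested if its Cy5 signal was well above background on 3 or more of the 4 arrays of either group (11406 probes, 10566 genes by brightest probe) with lmFit and eBayes on group plus slide column. P-values are two-sided and Benjamini-Hochberg adjusted over all tested genes. The fit was tested on simulated data. Number of arrays and signal over background limit the precision.

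The members and lists were chosen with earlier results of these data known. Named genes are fixed functional examples plus, in each class, the 5 higher and 5 lower members with the smallest p and the 3 highest and 3 lowest control ratios, plus the 2 genes of each other list with the smallest p. Mrpl54, Rpl35a, Rplp1, Rplp2, Rps15, Rps15a, Rps29 and Rpl30, and some marker genes, were named after their values were seen. Some genes counted among the members are not reported here by name.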

Additional observations from a re-analysis of the deposited data

Results flagged for a closer look

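One value was far from the others of its group. The median ratio of the cytosolic members was -1.05 in mixture replicate 1, where the other 3 mixture arrays lay between -0.83 and -0.80, a gap beyond Dixon's 95% critical value for 4 samples. It was the 1 marked group among 112 checked, and chance marks about 1 in 20. The explanation was not tested.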

How the results depend on the processing

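No paired analysis was possible because control replicates are numbered 5 to 8 and mixture replicates 1 to 4, so the groups share no number. No ribosomal protein gene passed an adjusted p of 0.05 under any setting run. The smallest adjusted p (limma) was 0.492, without mixture replicate 4. Without control replicate 7, 10 of 134 members had an unadjusted p under 0.05, against 1 in the main fit. The share of all genes in the fit without control replicate 7 is not given here, so the count cannot be set against a background. Of 10566 genes 5 passed in the main fit. Under other settings 0 passed with processed signals, 3 with median centring, 14 in Cy5 alone and 3 with signal required on all 8 arrays. Without slide column 1 passed, and 0 passed with slide row in place of slide column. In column 1 alone 2 passed, and in column 2 alone 0. With a trended robust variance 3 passed, and 1 to 11 when 1 array was left out. With median centring the cytosolic median difference was -0.0023 (37 lower) and the mitochondrial 0.0066 (27 lower). In column 1 alone the cytosolic median was 0.015 (25 lower), and the cytosolic minus the mitochondrial median 0.044; in column 2 alone the cytosolic median was -0.194. The causes were not tested. Leaving out 1 array gave a cytosolic median of -0.146 to -0.030 and 47 to 71 lower, the lowest count and the value nearest 0 without mixture replicate 1, a mitochondrial median of -0.043 to -0.010 (37 to 48 lower), and median slide column differences of -0.021 to 0.089 (cytosolic) and 0.036 to 0.114 (mitochondrial). For the slide columns, median centring gave 25 cytosolic and 19 mitochondrial members past the threshold and a mitochondrial median of 0.148. The share of all genes past the threshold under median centring is not given here, and the 56.9% above is that under loess. Depth limits dim genes: 10 of 144 members could not be tested.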
